A study of Mus musculus with 11 samples.

Results

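Genes of fructose breakdown and glucose production, namely Khk, Tkfc, Pck1, Fbp1, G6pc and Slc37a4, were followed through long-term culture of mouse intestinal organoids. They were chosen by name for their place in these pathways, with earlier results of these data known. They are 6 of the 37310 gene identifiers in the count tables, and all 6 passed the filter on low counts, which kept 14172 genes. RNA had been sequenced from organoids, which are self-organising epithelial cultures grown from crypts, here from the small-intestinal epithelium of Lgr5-EGFP-IRES-creERT2 mice. This knock-in allele puts a green fluorescent protein and a drug-inducible Cre recombinase under the control of Lgr5, a gene of intestinal stem cells, and every library carries it. The organoids grew in Matrigel with IntestiCult medium and were passaged every 7 days. Early libraries were passages 2, 3 and 4 of mouse_283 and passages 2 and 4 of mouse_285 (n = 5), and late libraries were passages 11, 12 and 13 of both animals (n = 6). The labels name ages of 4 and 24 months but tie neither to an animal, so ages were not compared. The libraries are repeated passages from 2 animals, so p-values measure the spread between passages, and stage cannot be told apart from anything else that differed between the early and the late harvests. The tissue label is small intestine, although the protocol also mentions colon, and no label gives the segment of a library.

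Fructose enters the absorptive cells of the small intestine through the transporter Slc2a5. Khk, ketohexokinase, phosphorylates it, the product is split, and Tkfc, triokinase, phosphorylates the glyceraldehyde that is released. Glucose production runs the other way along the shared triose steps: Pck1, the cytosolic phosphoenolpyruvate carboxykinase, and Fbp1, a fructose bisphosphatase, bypass irreversible steps of glycolysis. Slc37a4 then carries glucose 6-phosphate into the endoplasmic reticulum, where G6pc, the catalytic subunit of glucose-6-phosphatase, frees glucose. Liver and kidney are the main sites of this last part, and the small intestine is known to express it as well.

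The promoters of 4 of these genes are shown because they carry the comparisons below: Fbp1 and Tkfc passed the test between stages, G6pc differed most between the animals, and Khk is the first enzyme of fructose breakdown. Each runs from 250 bases before the annotated start to 50 bases from it on, taken from RefSeq on GRCm38.p6, and capitals mark every match to 1 of 9 motifs on either strand. Khk lies at chr5:30921309-30921608 on the plus strand, Tkfc at chr19:10604209-10604508 on the minus strand, Fbp1 at chr13:62888233-62888532 on the minus strand and G6pc at chr11:101367466-101367765 on the plus strand.
Khk: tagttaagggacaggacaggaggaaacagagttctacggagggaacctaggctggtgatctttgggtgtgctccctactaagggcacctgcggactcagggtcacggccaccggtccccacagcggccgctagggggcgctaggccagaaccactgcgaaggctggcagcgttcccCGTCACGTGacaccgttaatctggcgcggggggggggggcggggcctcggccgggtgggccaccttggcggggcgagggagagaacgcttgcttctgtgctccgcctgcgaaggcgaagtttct
Tkfc: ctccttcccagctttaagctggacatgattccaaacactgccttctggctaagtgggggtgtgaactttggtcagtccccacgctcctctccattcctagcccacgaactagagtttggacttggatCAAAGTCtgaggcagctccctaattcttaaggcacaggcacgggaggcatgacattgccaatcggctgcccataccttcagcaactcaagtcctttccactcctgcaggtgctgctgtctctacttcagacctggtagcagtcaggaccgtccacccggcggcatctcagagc
Fbp1: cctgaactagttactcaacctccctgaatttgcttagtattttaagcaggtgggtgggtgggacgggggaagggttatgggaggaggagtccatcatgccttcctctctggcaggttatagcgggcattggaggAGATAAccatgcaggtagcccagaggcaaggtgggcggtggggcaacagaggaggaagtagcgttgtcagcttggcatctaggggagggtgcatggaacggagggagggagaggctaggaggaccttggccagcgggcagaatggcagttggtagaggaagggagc
G6pc: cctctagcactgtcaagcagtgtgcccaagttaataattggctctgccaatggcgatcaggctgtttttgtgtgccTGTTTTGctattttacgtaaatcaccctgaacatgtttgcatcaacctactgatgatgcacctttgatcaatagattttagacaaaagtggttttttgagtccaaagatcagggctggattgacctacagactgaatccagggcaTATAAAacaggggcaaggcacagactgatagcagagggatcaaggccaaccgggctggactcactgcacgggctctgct

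The motifs and the share of all 32851 promoters that hold each were the full cyclic AMP response element TGACGTCA (1.79%), its core TGACG (20.8%), an HNF4 core CAAAGTC (4.44%), a forkhead site TGTTTAC (3.65%), an insulin response element CAAAACA (6.28%), an E-box CACGTG (7.15%), a GATA site AGATAA (11.2%), a CDX site TTTATG (11.9%) and a TATA box TATAAA (13.6%). In Khk the reverse of TGACG begins at position -74 and overlaps the E-box at position -71, both counted from the start site. Tkfc holds CAAAGTC at position -123, and Fbp1 holds AGATAA at position -116. G6pc holds the reverse of CAAAACA at position -174 and a TATA box at position -29. The Pck1 promoter, which lies at chr2:173152823-173153122 on the plus strand, holds the reverse of AGATAA at position -169 and of TGACG at position -90. RefSeq lists 3 windows for Slc37a4 on the plus strand, at chr9:44396696-44396995, chr9:44396849-44397148 and chr9:44398104-44398403. The first has TGACG at position -61, the second has it at position -214 and reversed at position -82, and the last has a TATA box at position -32. A match describes letters in the window and says nothing of whether a factor binds there.

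Levels are given as normalised CPM, read counts scaled to the TMM-adjusted size of each library. Libraries held 15114132 to 28949911 gene reads, so that 3 reads corresponded to 0.104 to 0.198 CPM. The counts were taken without strand, since the 2 strand columns of each library held nearly equal numbers of reads. Marker genes were checked against the label: all 8 pan-epithelial and all 20 enterocyte markers were expressed, Car1, which marks colon, had no read, and all 6 fibroblast markers stayed under 1 CPM in every library. Passages 3 and 4 of mouse_283 stood apart, as their log2 CPM rose by 0.97 and 0.78 per 10 percentage points of GC content of the gene, against -0.41 to 0.20 in the other 9 libraries. Transcripts of Khk, Slc37a4 and Tkfc have 59.4%, 55.5% and 55.1% GC and those of Pck1, Fbp1 and G6pc 53.0%, 51.9% and 47.7%, while the median of all tested genes was 50.1%. Values without these 2 libraries are therefore given for each of the 6 genes. In passage 2 of mouse_283, 11.7% of reads fell outside annotated genes, against 3.77 to 6.64% in the other libraries.

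**Figure D1:**
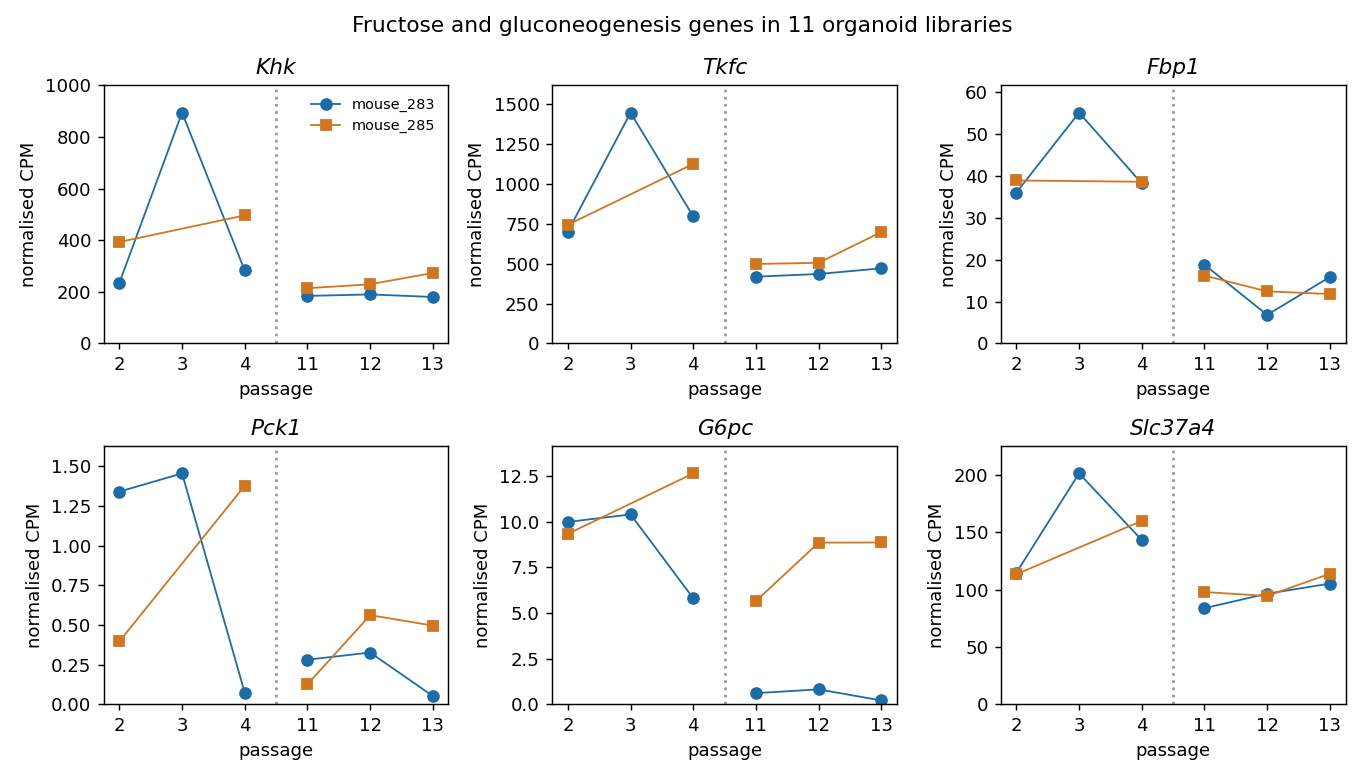
Normalised CPM (y axis, linear from 0) of each of the 6 genes by passage number (x axis), with circles for mouse_283, squares for mouse_285 and a dotted line between early and late passages. All but 1 of the 6 genes peak at passage 3 of mouse_283, and G6pc stays above 5 CPM in late mouse_285 but below 1 CPM in late mouse_283.

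Per unit of transcript length, the fructose enzymes were the most abundant of the 6. Median TPM (transcript abundance corrected for length, computed from the counts and the longest annotated transcript) over the 11 libraries was 493 for Tkfc, with a range of 294 to 702. It was 297 (224 to 616) for Khk, 92.9 (69.2 to 118) for Slc37a4 and 24.5 (8.61 to 50.4) for Fbp1. G6pc had a median of 4.94 TPM (0.173 to 9.03) and Pck1 of 0.279 TPM (0.0383 to 0.986). Khk and Tkfc lay above Slc37a4, Slc37a4 above Fbp1, Fbp1 above G6pc and G6pc above Pck1 in 11 of 11 libraries. Tkfc was above Khk in 10 of them, the exception being passage 3 of mouse_283, and the ranges of these neighbours overlap, as do those of Fbp1 with G6pc and of G6pc with Pck1. With the length of all exons merged, the Tkfc median was 376 TPM and that of Khk 323 TPM, a smaller gap in the same order.

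Each of 3 steps had a second gene at a higher level, and these were picked for comparison after the values were seen. Fbp2, the other fructose bisphosphatase, had a median of 286 TPM and lay above Fbp1 in all 11 libraries. Pck2, the mitochondrial carboxykinase, had 88.9 TPM and lay above Pck1 in all 11. G6pc3, a glucose-6-phosphatase of wide expression, had 84.2 TPM and lay above G6pc in all 11, while G6pc2, known from pancreatic islets, had no read in any library. Along the fructose route, the transporters were lower than Khk and Tkfc, at 20.5 TPM for Slc2a5, the apical fructose carrier, and 13.9 TPM for Slc2a2, the basolateral hexose carrier. Glyctk, glycerate kinase, which serves a side branch of glyceraldehyde use, had 0.656 TPM, and Pcx, pyruvate carboxylase, the entry to gluconeogenesis from pyruvate, had 10.4 TPM.

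**Figure D2:**
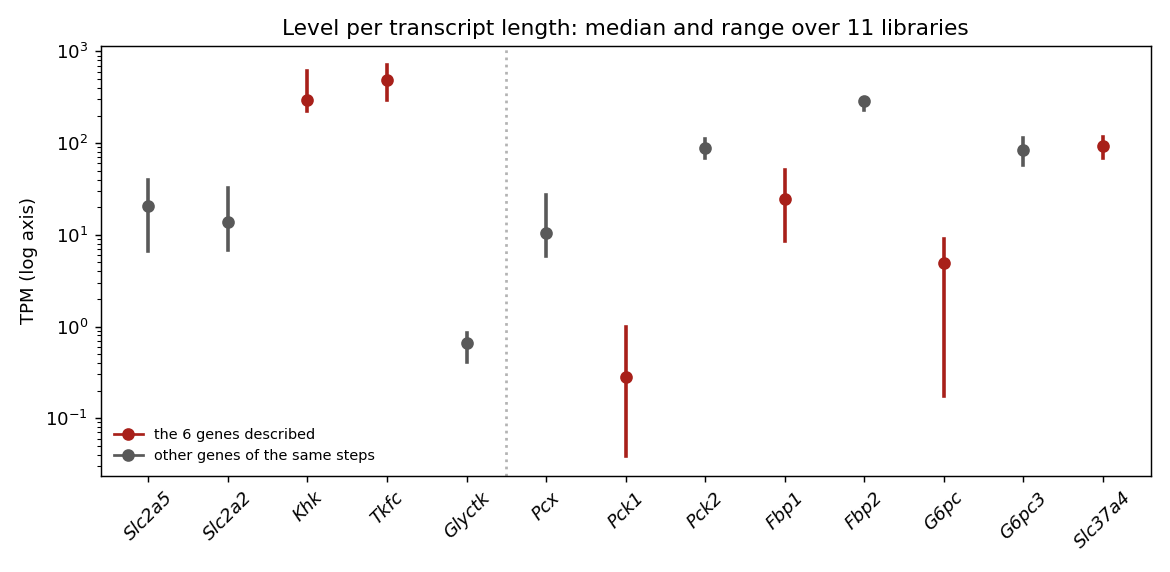
TPM on a log axis for genes along the fructose route (left of the dotted line) and the glucose production route (right), with points for the median and lines for the range over 11 libraries. The 6 genes are in red. Pck1, Fbp1 and G6pc each sit below the grey gene of the same step, with medians of 0.279 against 88.9 for Pck2, 24.5 against 286 for Fbp2 and 4.94 against 84.2 for G6pc3.

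Late passages were then compared with early ones. All 6 had lower means late, and 2 of 6, Fbp1 and Tkfc, passed edgeR's quasi-likelihood test with Benjamini-Hochberg adjustment over all 14172 genes, against 2.34% of all tested genes called lower, 0.706% called higher and 3.05% in either direction. The median log2 change (late minus early) was -1.37 over the 6 genes and -0.02 over all tested genes, of which 51.4% were negative. The same 2 genes had every late library below every early one in normalised CPM, as had 3.51% of all tested genes. Within each animal the late libraries of 4 of the 6 (Khk, Tkfc, Fbp1 and G6pc) all lay below its early ones in CPM in both mice, as did those of 5.43% of tested genes. In TPM this did not hold for Tkfc and G6pc, as passage 13 of mouse_285 lay above its passage 2 for both. All 6 changes were negative under every setting in which the gene was tested. The 6 genes were chosen with earlier results of these data known, so the comparisons with all tested genes are no independent test.

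Some cell type markers also differed between the stages. Of 20 enterocyte markers, 5 fell late (Lct, Anpep, Apoa1, Apoa4 and Slc5a1), against 2.34% of all tested genes, and none passed upward. These markers had 14 negative and 6 positive log2 changes and a median of -0.63. Their summed level was 3972 to 6222 CPM in early and 3005 to 4394 CPM in late libraries. None of the 8 pan-epithelial markers passed in either direction, with a median of -0.46 and sums of 8118 to 16663 CPM early and 7029 to 9794 CPM late. Tuft cell markers, of which 4 of 6 were tested, summed to 17.5 to 23.0 CPM early and 5.48 to 10.7 CPM late, and 2 of them, Trpm5 and Avil, fell. Of 8 enteroendocrine markers, Chgb and Neurod1 rose and Sst fell, with overlapping sums of 569 to 876 CPM early and 712 to 1049.8 CPM late. No stem or cycling, Paneth or goblet marker passed. Fewer cells of a type and less RNA per cell cannot be told apart in bulk libraries, and the part of these cell types in the changes below was not tested. Of the organs known for glucose production, hepatocyte markers summed to 104 to 249 CPM early and 85.5 to 129 CPM late, mostly Ttr and Ass1, with Ahsg at 0 and Alb at most 2.13 CPM. Of 6 kidney proximal tubule markers, 5 stayed under 1 CPM in every library.

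**Figure D3:**
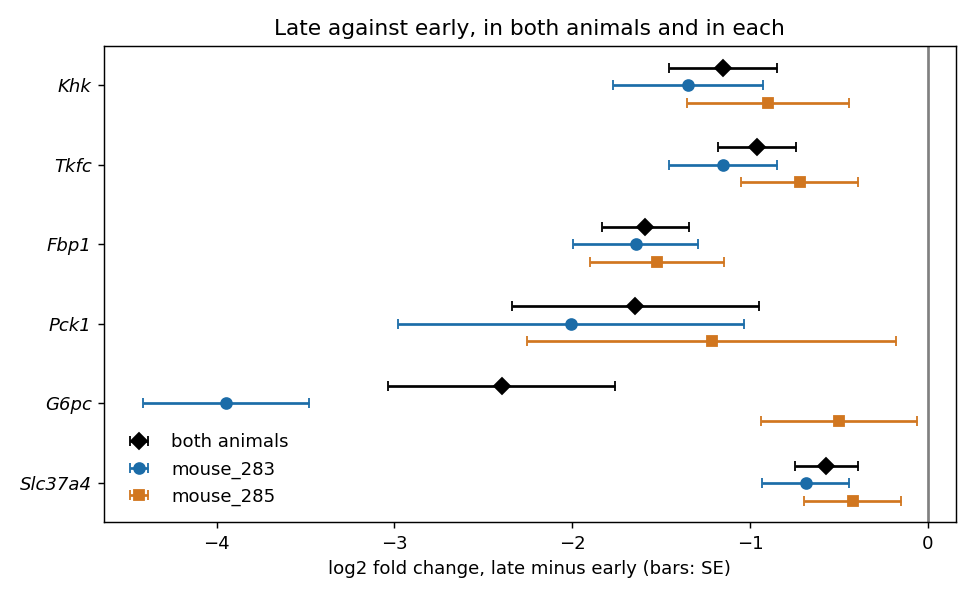
Log2 fold change, late minus early (x axis), of each gene in both animals together (black diamonds), in mouse_283 (blue circles) and in mouse_285 (orange squares), with bars for the SE. All points lie below 0, and those of the 2 animals lie farthest apart for G6pc, at -3.95 and -0.50.

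Khk, which commits fructose to breakdown, stood at 235, 894 and 282.6 CPM in passages 2, 3 and 4 of mouse_283 and at 393 and 496 CPM in passages 2 and 4 of mouse_285. Late values were 184, 190.0 and 180.2 CPM in passages 11, 12 and 13 of mouse_283 and 214, 229 and 273 CPM in mouse_285. Within each animal no late library reached an early one, but the highest late value, in mouse_285, exceeded the lowest early value, in mouse_283. The mean was 460.0 ± 263 CPM early (SD, n = 5) and 212 ± 35.5 CPM late (SD, n = 6), and the log2 change of -1.15 (SE 0.30) missed the threshold in edgeR's test (adjusted p = 0.0633). Passage 3 of mouse_283 set much of this size and spread. Without it the log2 change was -0.68 and passed (adjusted p = 0.0239). Leaving out passage 2 or passage 4 of mouse_283 also let Khk pass (adjusted p = 0.0125 and 0.0444), as did leaving out both passages 3 and 4 (-0.69, adjusted p = 0.0171) and offsets for GC content and length (-0.64, adjusted p = 0.0489). DESeq2 called it too (adjusted p = 0.00942), as did edgeR with no filter on low counts (adjusted p = 5.2e-05). The fit without passage 2 of mouse_283 called 16.2% of its tested genes lower, against 2.34% in the main fit.

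Tkfc, which returns glyceraldehyde to the triose pool, stood at 702, 1446 and 796 CPM in early mouse_283 and at 744 and 1125 CPM in early mouse_285. Late values were 419, 435 and 471 CPM in mouse_283 and 498, 505 and 698 CPM in mouse_285. In CPM every late library lay below every early one, although passage 13 of mouse_285 was close to passage 2 of mouse_283. In TPM the stages overlapped, since that late library had 538 TPM and 3 early ones had less, the lowest 493 TPM. The mean fell from 962 ± 318 CPM early (SD, n = 5) to 504 ± 101 CPM late (SD, n = 6), with a log2 change of -0.96 (SE 0.22) in edgeR's test (adjusted p = 0.0363). The call was lost without passage 4 of mouse_285 (adjusted p = 0.141) and without any late library other than passage 13 of mouse_285 (adjusted p = 0.0824 to 0.109). The log2 change was -0.69 without passages 3 and 4 of mouse_283 (adjusted p = 0.0220) and -0.57 with GC and length offsets (adjusted p = 0.0386). Exons of Tkfc share 596 bases with Cyb561a3 and 328 bases with Ddb1 on the opposite strand in a later annotation. Reads that could not be told apart without strand were tallied as ambiguous (3.11 to 4.03% per library) and left out, so Tkfc may lack reads from shared bases. With both strand columns summed its log2 change was -0.94 (adjusted p = 0.0361). The log2 changes of the overlapping genes were -0.44 (SE 0.17) for Cyb561a3 and -0.51 (SE 0.17) for Ddb1, and neither passed.

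Fbp1, which removes a phosphate from fructose bisphosphate on the way to glucose, stood early at 36.0, 55.0 and 38.1 CPM in mouse_283 and 38.8 and 38.5 CPM in mouse_285. Late values were 18.8, 6.81 and 15.8 CPM in mouse_283 and 16.2, 12.4 and 11.8 CPM in mouse_285. The lowest early value was well above the highest late one, and the animals overlapped at both stages. The mean fell from 41.3 ± 7.74 CPM early (SD, n = 5) to 13.6 ± 4.22 CPM late (SD, n = 6), with a log2 change of -1.59 (SE 0.25) in edgeR's test (adjusted p = 0.00659). This call held under all 19 other settings tried, with log2 changes of -1.73 to -1.38 and an adjusted p of at most 0.0221. Without passages 3 and 4 of mouse_283 the log2 change was -1.46. The change was -1.64 (SE 0.35) within mouse_283, which passed (adjusted p = 0.0437), and -1.52 (SE 0.38) within mouse_285, which did not (adjusted p = 0.382). The call within mouse_283 was lost in 10 of 17 other settings. The difference between the animals was 0.12 (SE 0.51, adjusted p = 0.990).

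Pck1, which turns oxaloacetate into phosphoenolpyruvate in the cytosol, was near the limit of detection. Its values were 1.34, 1.46 and 0.0722 CPM in early mouse_283 and 0.396 and 1.38 CPM in early mouse_285, then 0.281, 0.326 and 0.0517 CPM in late mouse_283 and 0.126, 0.561 and 0.496 CPM in late mouse_285. These rest on 122 reads in all, with 3 reads or fewer in 3 libraries. Early and late libraries overlapped in both animals. The mean was 0.928 ± 0.645 CPM early (SD, n = 5) and 0.307 ± 0.200 CPM late (SD, n = 6), with a log2 change of -1.65 (SE 0.69) that did not pass edgeR's test (adjusted p = 0.185). At this depth the test could not tell the difference from the spread between libraries, and Pck1 passed only with no filter on low counts (adjusted p = 0.0358). Its log2 change was -1.76 without passages 3 and 4 of mouse_283.

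G6pc, which carries out the last step of glucose release, had its largest fall in mouse_283. Early levels were 9.99, 10.4 and 5.81 CPM in mouse_283 and 9.34 and 12.7 CPM in mouse_285, and these overlapped. Late levels were 0.608, 0.815 and 0.207 CPM in mouse_283, from 13, 25 and 4 reads, and 5.66, 8.86 and 8.87 CPM in mouse_285. Every late library of mouse_285 lay above every late library of mouse_283, and late CPM lay below early CPM within each animal. In TPM the stages of mouse_285 overlapped, with 7.81 TPM in its passage 13 and 7.42 TPM in its passage 2. Means in mouse_283 fell from 8.74 ± 2.54 CPM early (SD, n = 3) to 0.543 ± 0.309 CPM late (SD, n = 3), with a log2 change of -3.95 (SE 0.47) in edgeR's test (adjusted p = 0.00270). G6pc and Fbp1 were the 2 of 6 genes that passed within mouse_283, against 1.42% of all tested genes, and the G6pc call held in all 17 other settings (-4.38 to -3.59, adjusted p at most 0.0187). Means in mouse_285 were 11.0 ± 2.34 CPM early (SD, n = 2) and 7.79 ± 1.85 CPM late (SD, n = 3), and the model gave -0.50 on the log2 scale (SE 0.44, adjusted p = 0.993).

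The difference between these G6pc changes was itself tested. The interaction of stage and animal was 3.45 on the log2 scale (SE 0.64, unadjusted p = 0.00019), but it did not pass edgeR's adjustment over all genes (adjusted p = 0.817), where 0 genes passed. At an unadjusted p under 0.05 there were 302 such genes with G6pc as the only one of the 6, and DESeq2 called 16 genes, again with G6pc (adjusted p = 0.000149). The call also appeared with no filter on low counts (adjusted p = 0.000158) and without passage 2 of mouse_283 (adjusted p = 0.00399). Those fits called 65 and 2314 genes in the interaction. Over both animals, the stage change of G6pc was -2.40 (SE 0.64, adjusted p = 0.0654), and passed without passage 2 of mouse_283 (adjusted p = 0.0213), without passage 2 of mouse_285 (-3.02, adjusted p = 0.0301), with DESeq2 (adjusted p = 0.000125), with no filter on low counts (adjusted p = 7.95e-09) and with GC and length offsets (adjusted p = 0.0382). Without the animal as a block it was smaller, at -1.22 (adjusted p = 0.275). Without passages 3 and 4 of mouse_283 it was -1.97 (adjusted p = 0.0572). Between stages, the fit without passage 2 of mouse_283 called 16.2% of its tested genes lower.

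Slc37a4, which supplies glucose 6-phosphate to that enzyme, varied least of the 6, by 2.40 times from its lowest to its highest library. It stood at 115, 202 and 143 CPM in early mouse_283 and 113 and 160.0 CPM in early mouse_285, then at 83.9, 96.5 and 105 CPM in late mouse_283 and 97.9, 94.5 and 114 CPM in late mouse_285. Late libraries lay below early ones in mouse_283, while in mouse_285 passage 13 lay just above passage 2. The mean was 147 ± 36.4 CPM early (SD, n = 5) and 98.7 ± 10.2 CPM late (SD, n = 6), and the log2 change of -0.57 (SE 0.18) missed the threshold (adjusted p = 0.0997). Without passages 3 and 4 of mouse_283 it was -0.36 (adjusted p = 0.175), and with GC and length offsets -0.17 (adjusted p = 0.367). It passed without passage 2 of mouse_283 (adjusted p = 0.0186) and with DESeq2 (adjusted p = 0.0459). Those fits called 16.2% and 5.99% of their tested genes lower.

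Within single animals and in CPM, 5 of the 6 genes had all late libraries below all early ones in mouse_283, as had 9.45% of tested genes, and 4 of 6 in mouse_285, as had 18.3%. In mouse_285 alone 0 of the 6 passed edgeR's test, as did 0% of all genes, and 2 of the 6 (Fbp1 and Tkfc) were among the 762 genes with an unadjusted p under 0.05. Its log2 changes were -0.90 (SE 0.46) for Khk, -0.72 (SE 0.33) for Tkfc, -1.21 (SE 1.04) for Pck1 and -0.42 (SE 0.27) for Slc37a4. The corresponding values in mouse_283 were -1.35 (SE 0.42), -1.15 (SE 0.30), -2.005 (SE 0.97) and -0.69 (SE 0.25), none of which passed. No gene of the 6 had libraries that separated the animals without overlap, as 0.522% of tested genes did. Between the animals with stage in the model, 0 of the 6 differed in edgeR's test, against 0.0776% of all genes called. G6pc had the largest value, 2.23 higher in mouse_285 on the log2 scale (SE 0.64, adjusted p = 0.391), and was the only one of the 6 with an unadjusted p under 0.05 and the only one called by DESeq2 (adjusted p = 0.00257). In the late libraries alone, mouse_285 lay above mouse_283 without overlap for G6pc, Khk and Tkfc. The share of all tested genes with such a separation was not computed, so it cannot be called particular to these genes. No gene, and 0 of the 6, followed passage number within a stage by edgeR or by DESeq2, where 911 genes and 0 of the 6 had an unadjusted p under 0.05.

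Setting each gene against the other gene of its step removes what both share within a library. The log2 ratio of Fbp1 to Fbp2 reads was -2.63 to -2.33 in early and -4.80 to -3.41 in late libraries, with no overlap. It changed by -1.41, and an exact two-sided permutation of stage within animals gave p = 0.005, the smallest that 200 arrangements allow (0.015 adjusted over 3 ratios). The ratio of G6pc to G6pc3 ran from -4.06 to -2.16 early and from -8.11 to -2.72 late, which overlap, and changed by -2.02 (exact permutation p = 0.02, adjusted 0.03). The ratio of Pck1 to Pck2 changed by -1.11 (exact permutation p = 0.235, adjusted 0.235). These ratios were added after the data were seen. Fbp1 stayed at the smallest p that the libraries allow in every leave-one-out and without passages 3 and 4 of mouse_283. That smallest p missed the threshold after adjustment without passage 11 or 12 of mouse_285 (0.05 for each) and without those 2 early libraries (0.075), so these settings say nothing of the Fbp1 ratio. For G6pc the last setting gave an exact permutation p of 0.075 (adjusted 0.1), above the smallest possible p of 0.025. Its adjusted p was 0.075 without passage 11 or 12 of mouse_285 and 0.0563 without passage 2 or 4 of mouse_285. The partner genes themselves changed by -0.24 (SE 0.14) for Fbp2, -0.29 (SE 0.23) for Pck2 and -0.40 (SE 0.27) for G6pc3, and none passed edgeR's test.

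Among other genes of fructose uptake and breakdown, 2 of 13 tested fell late, Slc2a7 among them, against 2.34% of all tested genes. In this list 0 rose, 11 had negative and 2 positive values, and the median log2 change was -0.66. This list and those below were chosen with earlier results of these data known, so the shares are no independent test. No member of this list had an unadjusted p under 0.05 in the upward direction, and DESeq2 called none higher. Slc2a7, a hexose transporter, fell from 1.08 to 0.358 CPM, or -1.96 on the log2 scale (SE 0.39, adjusted p = 0.0186). Its late mean rests on few reads, as 3 reads made 0.104 to 0.198 CPM. Slc2a2 went from 63.6 to 34.3 CPM (-0.94, SE 0.24, adjusted p = 0.0590, or 0.00671 without passages 3 and 4 of mouse_283), and Gpd1, which links triose phosphate to glycerol, from 273 to 162 CPM (-0.75, SE 0.25, adjusted p = 0.118). The weakest Gpd1 change under the other settings was -0.31. Slc2a5, outside the naming rule but the entry point of fructose, went from 40.6 to 27.5 CPM (-0.90, SE 0.33, adjusted p = 0.146). The Slc2a7 call was lost without any late library of mouse_283 or without passage 4 of mouse_285 (adjusted p = 0.0532 to 0.0638). Without the animal term the adjusted p was 0.0979 for Slc2a7.

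Of 22 other tested genes of gluconeogenesis, its carbon supply and its carriers, 1 fell late, against 2.34% of all tested genes, and 0 rose. Of the 22, 15 were negative, and the median log2 change was -0.25. Got1, the cytosolic aspartate aminotransferase, fell from 144 to 80.5 CPM (-0.83, SE 0.16, adjusted p = 0.0165). The next by p did not pass: Gpt, alanine aminotransferase, at -0.79 (adjusted p = 0.141), Slc25a11, the mitochondrial oxoglutarate carrier, at -0.46 (0.175), and Ldha, lactate dehydrogenase, at -0.48 (0.177). Their weakest values under the other settings were -0.29, -0.0985 and -0.25. Got1 lost its call without passage 11 or 12 of mouse_283, passage 12 of mouse_285 or passage 4 of mouse_285 (adjusted p = 0.0503 to 0.0765). The 10 enzymes of the reversible steps, which serve both directions, were all negative with a median of -0.45, and 0 passed edgeR's test. At an unadjusted p under 0.05 there were 5, all lower, and DESeq2 called 1 lower. Their smallest p-values were those of Gpi1 (-0.84, adjusted p = 0.0858), Gapdh (-0.74, 0.123), Aldoa (-0.74, 0.132) and Eno1 (-0.61, 0.165). The size of these changes depended on the processing. Their weakest values under the other settings were -0.46 for Gpi1, -0.39 for Gapdh, -0.28 for Aldoa and -0.13 for Eno1.

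The irreversible steps of glycolysis and their regulators, which run against gluconeogenesis, also held called genes. Of 18 tested, 4 fell late, against 2.34% of all tested genes, and 0 rose. Of the 18, 12 were negative, and the median log2 change was -0.45. Pfkfb4, which sets the level of an activator of phosphofructokinase, fell from 73.8 to 40.7 CPM (-0.89, SE 0.15, adjusted p = 0.0103), a call that held under all 19 other settings. Pklr, the pyruvate kinase of liver and gut, fell from 593 to 326 CPM (-0.90, SE 0.16, adjusted p = 0.0113) and lost its call only without passage 4 of mouse_285 (adjusted p = 0.0527). Hkdc1, a hexokinase-like protein, fell from 264 to 142 CPM (-0.90, SE 0.20, adjusted p = 0.0306). Gckr, the glucokinase regulator that binds fructose phosphates, fell from 1.19 to 0.256 CPM (-2.19, SE 0.46, adjusted p = 0.0241). That late mean rests on few reads, as 3 reads made 0.104 to 0.198 CPM. Hkdc1 lost its call with GC and length offsets (adjusted p = 0.0613) and without any one of 8 libraries (adjusted p = 0.0501 to 0.123), all but passages 2 and 4 of mouse_283 and passage 13 of mouse_285. Gckr lost it without any one of 7 (0.05002 to 0.0909), all but passages 2, 4, 11 and 13 of mouse_283.

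Among 26 transcription regulators linked to these genes, 3 fell late, against 2.34% of all tested genes, and 0 rose. Of the 26, 17 were negative, and the median log2 change was -0.19. At an unadjusted p under 0.05, 1 was higher, and DESeq2 called none higher. Mlxipl, which encodes the carbohydrate-responsive factor ChREBP, fell from 305 ± 59.1 CPM in the 5 early libraries to 209 ± 35.0 CPM in the 6 late ones, or by 0.59 on the log2 scale (SE 0.14, adjusted p = 0.0429). Creb3l3, a membrane-bound factor of liver and gut, fell from 99.7 ± 43.4 to 40.8 ± 12.5 CPM (-1.29, SE 0.32, adjusted p = 0.0469). Nr0b2, a nuclear receptor that represses other receptors, fell from 2.56 to 0.546 CPM (-2.25, SE 0.38, adjusted p = 0.0104), with few reads in late libraries. It lost its call only without passage 4 of mouse_285 (0.0501). The calls of Mlxipl and Creb3l3 were the least settled. Mlxipl was not called with GC and length offsets (-0.30, adjusted p = 0.254), without the animal term (0.0928), with no filter on low counts (0.1002), or without any one of 8 libraries (0.05002 to 0.177), all but passages 2 and 4 of mouse_283 and passage 2 of mouse_285. Creb3l3 was not called with the offsets (-0.89, 0.0920), with at least 1 CPM in 5 libraries (0.0514) or without any one of 9 libraries (0.0735 to 0.145), all but passages 2 and 4 of mouse_283. No gene of these 5 lists differed between the animals or in the interaction.

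**Figure D4:**
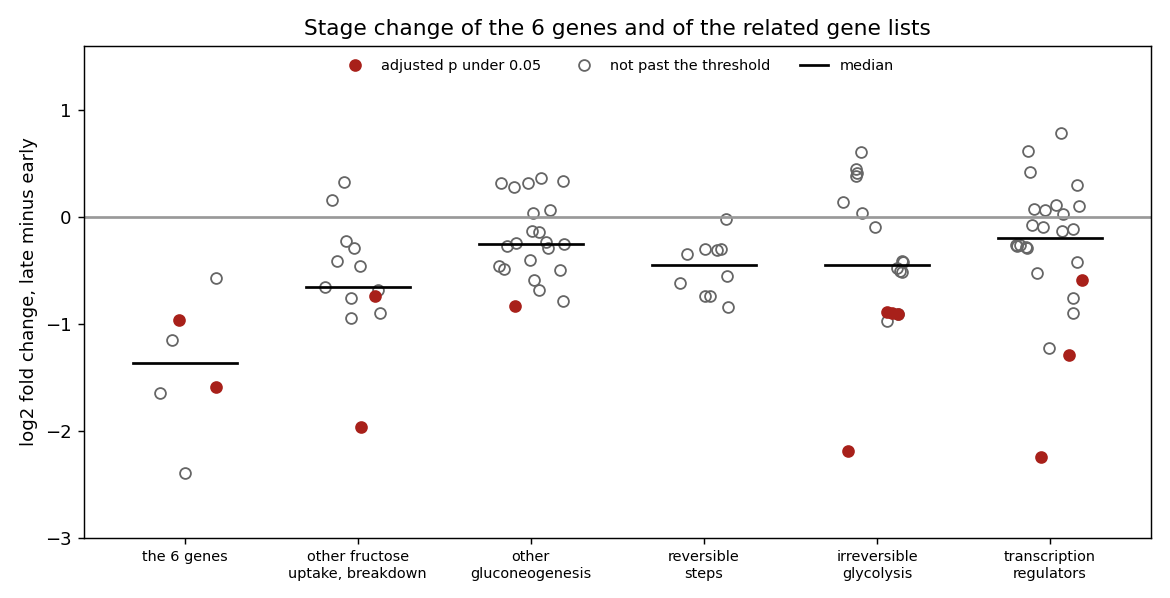
Log2 fold change, late minus early (y axis), of the 6 genes and of each tested gene of the 5 related lists, with filled red points for an adjusted p under 0.05, open points for the rest and a black line for the median. Medians run from -1.37 for the 6 genes to -0.19 for the transcription regulators, and every filled point lies below 0.

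Across the 11 libraries the pairs of these 6 genes differed in how closely they ran together. Of their 15 pairs, Slc37a4 with Tkfc had the highest Pearson r of log2 CPM, 0.96, which was 0.95 after stage and animal means were removed. Khk with Tkfc had 0.95 (0.89 after removal) and Slc37a4 with Khk 0.90 (0.83), while Pck1 with Fbp1 had the lowest, 0.39 (-0.11). The 3 genes of these tight pairs are those with the highest GC content of the 6. The libraries share 2 animals and the GC trend described above, so these values are descriptions over libraries that are not independent. By Spearman rank correlation G6pc had 0.90 with Khk, 0.87 with Pck1 and 0.86 with Tkfc, against Pearson r of 0.62, 0.62 and 0.69. Pck1 with Fbp1 was the lowest by rank too, at 0.36. Of 9636 genes of at least 5 CPM, the closest to Khk were Slc39a5 (0.98), Smim24 (0.97) and Cebpa (0.97), and to Tkfc Daglb (0.98), Nmnat3 (0.98) and Faah (0.97). Closest to Slc37a4 were Atp13a1 (0.99), Recql5 (0.98) and Wdr81 (0.98), and to Fbp1 Col26a1 (0.97), H2-Q7 (0.97) and Sox13 (0.96). Closest to G6pc, with its fall in late mouse_283, were Spink1 (0.97), Aspg (0.96) and H2-T3 (0.95). Their rank correlations with G6pc were 0.72, 0.72 and 0.88. Pck1 had no gene above 0.80, the value of Lmbr1l, followed by Nqo2 (0.78) and Map3k14 (0.76).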

How the data were processed

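RNA of 11 organoid cultures was measured by sequencing, 1 library per animal and passage. Per the submitters' processing notes, the authors trimmed reads with Trimmomatic and aligned and counted them with STAR on build mm9, and they deposited read counts per gene, once without regard to strand and once for either strand. Versions and the annotation are not given in the sources used here. The unstranded counts were used. Of 37310 identifiers, 32620 matched a symbol. The summary lines of each table (unmapped, multimapping, no gene, ambiguous) were left out of library sizes. The passage numbers follow the sample titles, since the table names give a number higher by 1.

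Analyses used R 4.3.3, edgeR 4.0.16, limma 3.58.1 and DESeq2 1.42.0. Genes were filtered with filterByExpr, which left 14172, scaled by TMM and tested two-sided by the quasi-likelihood F test with animal and stage as terms, Benjamini-Hochberg adjustment over all tested genes and a threshold of 0.05. Effects within animals, their interaction and a slope on passage number within stages had models of their own. The SE is the log2 change divided by the square root of F. CPM are TMM-scaled and log2 CPM used a prior count of 2. The limit of 3 reads covers counting error only, as reads are not independent molecules. Transcript length and GC content came from an annotation of GRCm38, a later build, for 13709 tested genes (96.7%). The scripts were tested on simulated data.

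The members and lists were chosen with earlier results of these data known. Named were the 6 genes, up to 4 genes per list with the smallest p between stages plus all called ones, and the 3 most similar genes per member. Some genes and motifs that the rules cover are not reported here. Alternatives were DESeq2, median-of-ratios factors, no filter, at least 1 CPM in 5 libraries, both strand columns summed, GC and length offsets by a spline of 5 degrees of freedom, no animal term, leaving out passages 3 and 4 of mouse_283 and leaving out each library in turn. Libraries of the same animal across stages had a median correlation of deviations of 0.11 and those of different animals -0.14 (15 pairs each), and the block is the animal named in the titles.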

Additional observations from a re-analysis of the deposited data

Results flagged for a closer look

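Of 12 groups examined (6 genes at 2 stages), 2 held a library far from the others, and chance flags about 1 group in 20. Fbp1 stood at 55.0 CPM in passage 3 of mouse_283, while the other early libraries had 36.0 to 38.8 CPM. Tkfc stood at 698 CPM in passage 13 of mouse_285, while the other late libraries had 419 to 505 CPM.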

How the results depend on the processing

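With the main model 432 genes (100 higher, 332 lower) and 2 of the 6 passed between stages. DESeq2 called 1343 (495 higher, 848 lower) and 5 of the 6, no filter 1819 (1053 and 766) and 5, GC and length offsets 813 (401 and 412) and 4, and the fit without passages 3 and 4 of mouse_283 697 genes and 3. Genes called lower were 5.99% of 14149 tested with DESeq2, 3.26% of 23493 with no filter and 3.01% of 13709 with offsets. Without passages 3 and 4 of mouse_283 they were 3.4% of 14630. Leaving out each library gave 173 to 4872 genes and 1 to 5 of the 6. The most came without passage 2 of mouse_283 (2596 higher, 2276 or 16.2% lower, and 5 of the 6). The fewest came without passage 4 of mouse_285 (0.916% lower and 1 of the 6). Without the replicate block of animal, 400 genes (83 higher, 317 lower) and 2 of the 6 passed. The calls of Slc2a7 and Mlxipl, among others, were lost there.

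Between the animals 11 genes passed, against 126 with DESeq2, 207 with no filter, 27 with offsets, 107 without passages 3 and 4 of mouse_283 and 3 to 74 leaving out each library, and G6pc was the 1 of the 6 called with DESeq2 or no filter. The interaction gave 0 genes, against 16 with DESeq2, 65 with no filter, 1 with offsets, 5 without passages 3 and 4 of mouse_283 and 0 to 2314 leaving out each library. Of the 6, 1 was called with DESeq2, 1 with no filter and 0 to 1 leaving out each library.

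Within mouse_283, 201 genes and 2 of the 6 passed, against 1446 and 4 with no filter, 466 genes with offsets, 932 without its passages 3 and 4, and 36 to 7694 genes and 1 to 5 of the 6 leaving out each library. Within mouse_285, 0 genes passed, against 114 genes and 1 of the 6 with no filter, 27 genes with offsets, 317 genes and 2 of the 6 without passages 3 and 4 of mouse_283, and 0 to 58 genes leaving out each library. Within mouse_283, the 7694 genes and the 5 of the 6 arose without passage 2 of that animal, where 14052 genes were tested. No direction reversed, passage number gave 0 in all settings, and Pck1 was not tested with at least 1 CPM in 5 libraries. The cause of these differences was not tested. Depth limits Pck1, late G6pc in mouse_283 and the late levels of Gckr, Slc2a7 and Nr0b2.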
